A study of Mus musculus with 2 samples.

Results

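Fibroblasts of the mouse cervix were 186 of 13981 cell barcodes that passed the filter, 74 of 4760 in the control library and 112 of 9221 in the progesterone library. A barcode was kept with at least 200 genes and at most 20% of its unique molecular identifiers (UMIs, one per captured transcript) from mitochondrial genes. It counted as a fibroblast when the UMIs of the stromal genes Col1a1, Col1a2, Col3a1, Dcn and Lum summed to at least 5 and exceeded the sum of the smooth muscle genes Acta2, Myh11, Tagln and Des, and when Krt5 and Krt14 together had at most 3 UMIs. The barcodes were thus chosen by the measured levels of these 11 genes, which are given as a description only.

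Both libraries came from ovariectomised C57BL6/129 females operated on at 7 to 8 weeks of age and rested for 2 weeks, and each pooled the cervices of 9 mice. The control mice were left untreated for the 15 days of the experiment, with no vehicle. The progesterone mice were first injected with E2 (estradiol, 100 µg per day for 2 days, in corn oil) and then carried a 25 mg progesterone pellet built to last 21 days and give about 1 mg per day. The tissue was minced and digested with cold protease, and droplet libraries with 3′ chemistry were made. With 1 pooled library per group there is no spread between mice and no test: progesterone, the E2 injections, the pellet and the library cannot be told apart, and every interval below is a 95% interval of counting error only.

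Fibroblasts make the collagen, elastic fibre and proteoglycan matrix that gives the cervix its strength, and the remodelling of this matrix precedes birth. In the reproductive tract they are also a main site of steroid receptors, through which estradiol and progesterone act on the stroma and, by secreted factors, on the epithelium. Across organs, fibroblasts that carry Pi16, Clec3b and Dpt lie in the adventitia around vessels, while others that carry Col15a1 or Cxcl12 lie within the tissue. Hox genes of the A cluster mark position along the tract that arises from the Müllerian duct.

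The fibroblast label held against the markers. All 22 fibroblast markers that the rule did not use were detected in each library, as they were in the other kept barcodes. Every fibroblast barcode had a UMI of at least 1 of them. They summed to 33128 CPM (counts scaled to 1000000 UMIs) in control and 27849 CPM in progesterone fibroblasts. In the other kept barcodes they summed to 374 and 456 CPM. Pi16, for example, was at 1544 and 1550 CPM in fibroblasts against 2.64 and 3.04 CPM in the other kept barcodes. Clec3b was at 2529 and 1811 CPM against 1.15 and 3.28 CPM. Of 15 smooth muscle markers that the rule did not use, 8 were detected in control and 10 in progesterone fibroblasts, and they summed to 1191 and 1107 CPM against 876 and 513 CPM in the other kept barcodes. Cald1, an actin-binding protein also found outside muscle, was at 547 and 388 CPM, while Cnn1, Actg2, Lmod1, Pcp4 and Myocd had no UMI in either library. Of 11 blood endothelium markers, 10 were at 0 in control and 7 in progesterone fibroblasts, and of 10 pericyte markers 3 and 7 were detected, at 109 and 54.2 CPM in sum, with Rgs5 at 0 in both. Mesothelial markers summed to 67 UMIs in control and 37 in progesterone fibroblasts, 815 and 111 CPM, against 414 and 275 CPM in the other kept barcodes. Among them Upk3b had 21 UMIs in 7 control barcodes, 255 CPM against 0.863 CPM in the other kept control barcodes. Of the control fibroblasts, 2 held at least 10 mesothelial UMIs. The part of mesothelial RNA in the control levels was not tested. Of the barcodes nearest the stromal limit, 2 control and 1 progesterone member had a sum of 5, and 1 control and 2 progesterone barcodes with a sum of 4 stayed outside. The keratin limit alone kept out 8 control and 18 progesterone barcodes.

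Fibroblasts were 1.55% [1.22 to 1.95] of the kept control barcodes and 1.21% [1.00 to 1.46] of the progesterone ones (exact Clopper-Pearson intervals, which overlap). The order turned under 2 alternatives, to 0.201% and 0.967% with at least 1000 genes per barcode and to 3.20% and 4.76% with barcodes of other markers left out. Depth differed much more. The median fibroblast had 917 UMIs and 522.5 genes in the control library but 2443.5 UMIs and 1076 genes in the progesterone library, 2.66 times as many UMIs, while squamous barcodes had medians of 5506 and 5078. Endothelial-marker barcodes differed in the same direction, with 1157 and 2329 UMIs. Thinned to 1000 UMIs, the medians were 583 and 561 genes. Levels below are therefore sums over all fibroblasts scaled to CPM, from 82256 control and 332363 progesterone UMIs. Shares called thinned were taken after thinning each barcode to 1000 UMIs, which left 35 of 74 control and 100 of 112 progesterone fibroblasts. Other counts of barcodes with a UMI were not thinned. The part of depth in the results was not tested. No barcode sequence of a fibroblast was shared between the libraries.

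**Figure D1:**
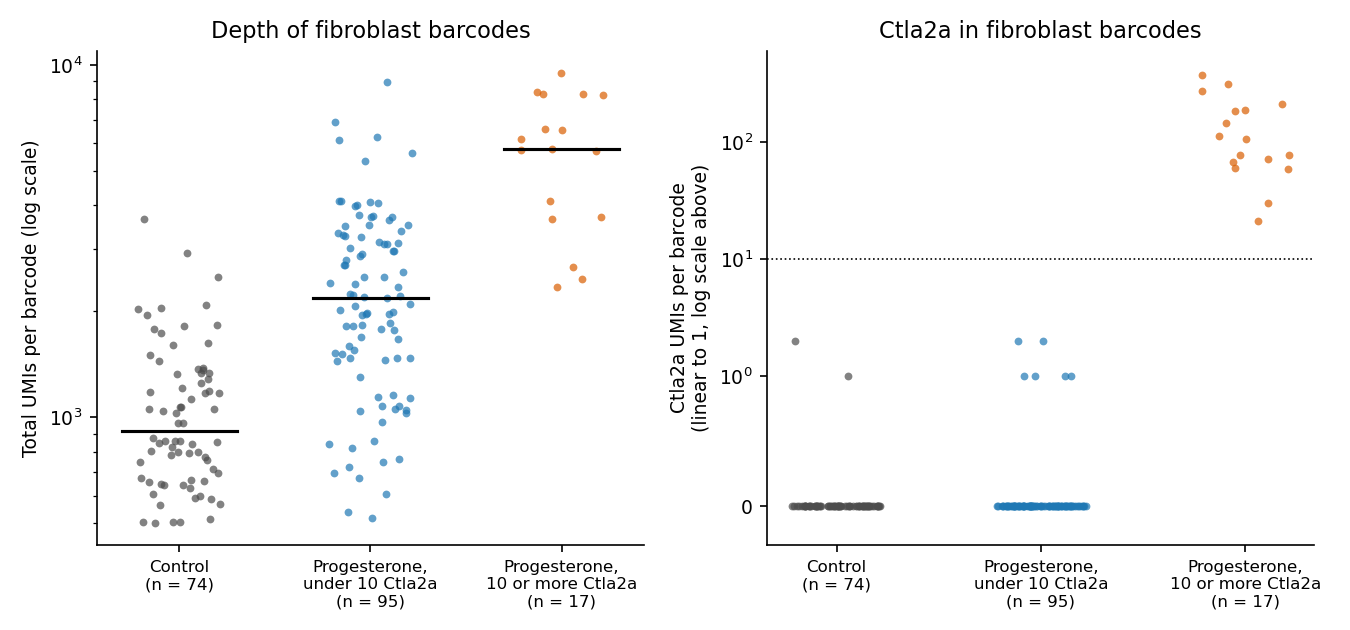
Total UMIs (left, log axis) and Ctla2a UMIs (right, linear to 1 and log above) of each fibroblast barcode, 1 point per barcode, in control, in progesterone barcodes under 10 Ctla2a UMIs and in progesterone barcodes with 10 or more. Black lines are medians, and the dotted line marks 10 UMIs. The 17 barcodes on the right hold 21 to 375 Ctla2a UMIs, and no fibroblast has between 3 and 20.

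Ctla2a, which encodes an inhibitor of cathepsin L-like proteases and lies at chr13:60934155-60936625 (minus strand, GRCm38), headed the genes higher with progesterone. It had 3 UMIs in control fibroblasts and 2379 in progesterone fibroblasts, 36.5 and 7158 CPM, a ratio of 196 [67.1 to 952]. The progesterone UMIs were not spread over the fibroblasts. Of the 112 barcodes, 17 (15.2% [9.10 to 23.2]) held 2371 of them, with 21 to 375 UMIs each and a median of 106. The other 95 held 8 UMIs, at most 2 each. No control fibroblast reached 10, and 0 of 74 allows a share of up to 4.05% by the limit of 3 counts and 4.86% by the Clopper-Pearson interval. The cut of 10 was set after the values were seen, and the plot of Ctla2a per barcode shows that it falls in an empty interval. Per 1000 UMIs, the 17 barcodes had 3.61 to 60.7 Ctla2a UMIs. The lowest of these values, which would be 3.31 UMIs at the control median depth, is close to the highest elsewhere, 2 UMIs in barcodes of 671 (control) and 517 (progesterone) UMIs, or 2.98 and 3.87 per 1000. After thinning, 0 of 35 control and 20 of 100 progesterone fibroblasts (20% [12.7 to 29.2]) had a Ctla2a UMI, against 0.175% and 0.423% of squamous barcodes.

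These 17 barcodes were deep, with 2342 to 9489 UMIs and a median of 5780, against a median of 2190 in the other 95. None was among the 9 progesterone fibroblasts scored as doublets, and 1 held 3 or more UMIs of a set of 14 markers of immune, endothelial, luminal epithelial and pericyte cells (Ptprc, Cd68, C1qa, C1qb, Tyrobp, S100a8, S100a9, Pecam1, Cdh5, Epcam, Krt8, Krt18, Muc5b and Rgs5). On the wider marker lists, luminal epithelium markers had 27 UMIs in the 17, at most 5 in a barcode, and erythrocyte markers 58, of which 51 lay in 1 barcode. Ctla2a is also abundant in endothelial-marker barcodes, at 2674 CPM in control and 2098 CPM in progesterone, and the 17 had UMIs of 2 of the 11 blood endothelium markers. These were Pecam1 and Cdh5, with 4 UMIs in all, which are all the UMIs of these genes in progesterone fibroblasts, and the other 9 were at 0. The part of endothelial RNA in the Ctla2a level was not tested. Their 10 of 15 detected smooth muscle markers summed to 1701 CPM, with Mylk at 30 UMIs and Tpm2 at 27, and Cnn1, Actg2, Lmod1, Pcp4 and Myocd at 0. All 17 had Col3a1 and 16 had Dcn, but both are genes of the selection rule, so this is a description only. Ctla2b, a near-identical neighbour on chromosome 13, had 1 UMI in them, and how the counting split reads that match both copies is uncertain.

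Other genes were found in the same barcodes. Hsd11b2, the enzyme that inactivates corticosterone, had 0 UMIs in control fibroblasts and 81 in progesterone fibroblasts, of which 79 were in 13 of the 17. Against a floor of 3 control UMIs it was 6.68-fold higher, with a lower 95% limit of 5.31. In the 17 it was at 804.6 CPM, against 8.54 CPM in the other 95. Rgs2, a brake on signals from Gq-coupled receptors, had 0 and 72 UMIs, with 68 in the 17. By the same floor it was 5.94-fold higher, with a lower 95% limit of 4.71. Rgs2 was at 693 CPM in the 17, but macrophage-marker barcodes had it too, at 282 CPM in control and 318 CPM in progesterone. Osr2, an odd-skipped transcription factor, had 3 and 72 UMIs, a ratio of 5.94 [1.95 to 29.5], with 56 in the 17. Without the 17 the Osr2 ratio was 1.87 [0.536 to 10.0], within 2-fold. Rxfp1, the relaxin receptor, was picked after its values were seen. All 37 of its fibroblast UMIs lay in 12 of the 17, 29.4-fold above the other 95 by the floor of 3 UMIs. It had no UMI in any kept control barcode. The position genes Hoxa10 and Hoxa11 had 2 and 1 UMIs in control fibroblasts and 42 and 38 in progesterone fibroblasts, of which 37 and 34 were in the 17. A UMI of either was seen in 14 of the 17 barcodes (82.4% [56.6 to 96.2]), in 7 of the other 95 and in 3 of 74 control fibroblasts. These counts were not thinned, and the median depths of the 3 groups were 5780, 2190 and 917 UMIs. These genes thus lay largely in the same barcodes, though not in all 17: those with 72 and 21 Ctla2a UMIs had no UMI of Hsd11b2, Rgs2, Osr2, Rxfp1, Hoxa10 or Hoxa11.

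The promoters of 3 of these genes are shown as examples of genes high in the same 17 barcodes. Hoxa10, which was high there too, has 2 listed starts, and neither window holds the letters searched for. They are the 250 bases before the RefSeq start, written 5′ to 3′ on the gene's strand, from build GRCm38.p6, with capitals for TGTTCT or its reverse complement AGAACA, the half-site bound by the progesterone and glucocorticoid receptors.
Ctla2a (chr13:60936626-60936875, minus strand): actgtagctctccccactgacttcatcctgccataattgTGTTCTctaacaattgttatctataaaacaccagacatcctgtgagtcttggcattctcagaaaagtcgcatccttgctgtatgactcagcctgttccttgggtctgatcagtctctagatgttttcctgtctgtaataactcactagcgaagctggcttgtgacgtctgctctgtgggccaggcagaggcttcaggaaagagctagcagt
Rgs2 (chr1:144004150-144004399, minus strand): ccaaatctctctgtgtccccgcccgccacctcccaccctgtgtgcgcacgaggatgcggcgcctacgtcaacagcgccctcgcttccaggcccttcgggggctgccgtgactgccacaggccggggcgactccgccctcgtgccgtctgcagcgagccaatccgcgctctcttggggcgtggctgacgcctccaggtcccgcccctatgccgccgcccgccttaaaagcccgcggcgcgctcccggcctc
Hoxa11 (chr6:52245811-52246060, minus strand): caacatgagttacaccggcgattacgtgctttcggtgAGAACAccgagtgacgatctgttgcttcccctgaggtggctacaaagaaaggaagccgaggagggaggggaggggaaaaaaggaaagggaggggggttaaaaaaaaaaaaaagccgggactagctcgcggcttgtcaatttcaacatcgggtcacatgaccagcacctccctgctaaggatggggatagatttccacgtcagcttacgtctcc
The match lies 211 bases before the start in Ctla2a and 213 in Hoxa11, and these letters are not in the Rgs2 window. Such a match is common: 5284 of 32851 promoter windows of this length (16.1%) hold the half-site on either strand, and 3 hold the half-site and its reverse complement as a palindrome with 3 bases between them. Ctla2a has 2 listed starts, and the one with the match is shown. Of the 12 named genes highest with progesterone, 8 have a promoter entry, with 2 of their 10 windows holding it, and of the 12 lowest 9 have one, with 3 of 15. A match is not a binding site.

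Within the progesterone library, the 17 barcodes differed from the other 95 far beyond Ctla2a. Of 774 genes with at least 50 UMIs over both sets, 57 (7.36%) were past 2-fold higher in the 17 and 219 (28.3%) past 2-fold lower, 35.7% in either direction. The sets held 98180 and 234183 UMIs, so a gene high only in the 95 met the minimum at a lower CPM. The part of this in the split was not tested. Apart from the genes above, those highest in the 17 included the transcription factor genes Tcf4 (75 UMIs against 19, ratio 9.42 [5.63 to 16.5]) and Nr2f2 (34 against 19, ratio 4.27 [2.37 to 7.92]). The growth factor Igf1 was at 1019 CPM in the 17, 307 CPM in the 95 and 340.4 CPM in control fibroblasts. Igfbp7, which binds insulin-like growth factors, had a ratio of 2.95 [2.24 to 3.90], and the accessory TGF-beta receptor Tgfbr3 one of 3.54 [2.20 to 5.77]. Genes with fewer UMIs that lay mostly in the 17 were the heparin-binding growth factors Ptn (34 of 39) and Mdk (33 of 41), the matrix protein Spon1 (37 of 46), and the hedgehog receptor Ptch1 (25 of 36). The muscle-sum gene Des had 27 of its 29 UMIs there, in barcodes whose muscle sum reached at most 5. Des is a gene of the selection rule, so this is a description only.

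The 17 barcodes had lower levels of many genes that marked the other fibroblasts. All 22 fibroblast markers outside the rule were still detected in them, at 8209 CPM in sum. Clec3b, a plasminogen-binding protein, was at 40.7 CPM in them against 2554 CPM in the 95, 62.7-fold lower [24.4 to 231]. Pi16, a peptidase inhibitor, was at 50.9 against 2178 CPM, 42.8-fold lower [18.2 to 132]. Complement C3 was at 122 against 3651 CPM, 29.9-fold lower [17 to 58]. The 17 were not uniform in this. Their 4 Clec3b UMIs all lay in the barcodes with 72 and 21 Ctla2a UMIs, which had no Hsd11b2 UMI. The barcode with 72 also held 9 of their 12 C3 UMIs. Sfrp1, a Wnt antagonist, had no UMI in the 17 and 126 in the 95, at least 17.6-fold lower. Of 20 Pi16-type adventitial genes 13 were tested, and 12 of these were past 2-fold lower in the 17, with a list median of -2.45 on the log2 scale against -0.15 for all genes. Complement genes were past 2-fold lower in 6 of 6, elastic fibre genes in 6 of 7 and protease inhibitors in 5 of 5, against 28.3% of all genes in this comparison. Among the stromal genes of the selection rule, Col1a1 had a ratio of 1.17 [0.884 to 1.54] and Col3a1 one of 0.697 [0.589 to 0.822]. Dcn was at 3412 CPM against 18921 CPM. The barcodes were chosen by these genes, so this is a description only.

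**Figure D2:**
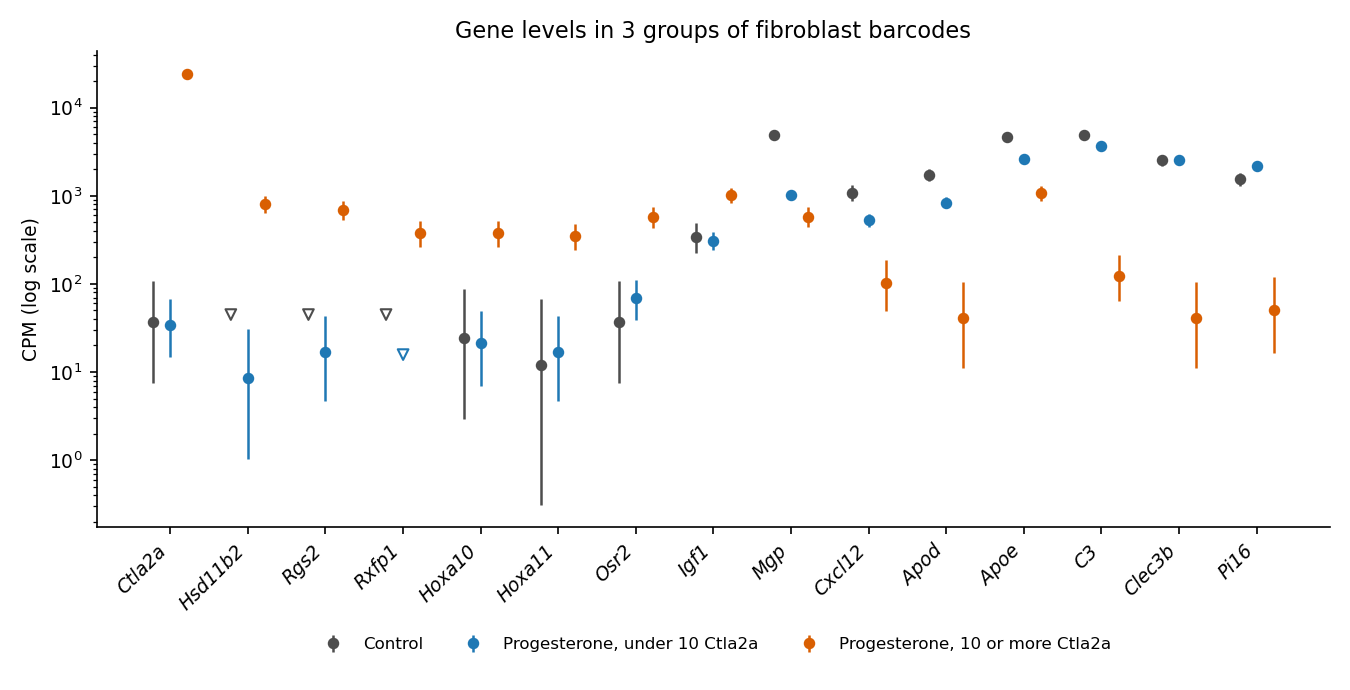
CPM (log axis) of 15 genes in control fibroblasts, progesterone fibroblasts under 10 Ctla2a UMIs and progesterone fibroblasts with 10 or more, as points with exact 95% Poisson intervals. Open triangles mark the upper interval limit of a gene with no UMI. Ctla2a through Osr2 are highest in the barcodes with 10 or more, where Clec3b and Pi16 are lowest, and Mgp is lower in both progesterone groups than in control.

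Over all fibroblasts, 989 genes had at least 50 UMIs in the 2 libraries together. Of these 55 (5.56%) were past 2-fold higher and 37 (3.74%) past 2-fold lower with progesterone, 9.3% in all. The median over all 989 was 0.02 on the log2 scale. The progesterone pool held more UMIs, so a gene high only there met the minimum at a lower CPM. Without the 17 Ctla2a-rich barcodes 766 genes had 50 UMIs, and 36 (4.7%) were higher and 18 (2.35%) lower, 7.05% in all. Values without the 17 are given for named genes that they move.

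Of the 12 genes named as lower with progesterone, 6 encode secreted proteins of matrix, signalling or complement. Mgp, which encodes matrix Gla protein, an inhibitor of calcification, had 403 UMIs in control and 298 in progesterone fibroblasts, 4899 and 897 CPM. That was 5.46-fold lower [4.69 to 6.37], and 4.76-fold lower without the 17. The highest single barcode held 74 of the 403 control UMIs. In thinned barcodes Mgp was seen in 54.3% [36.6 to 71.2] of control and 36.0% [26.6 to 46.2] of progesterone fibroblasts, and in 0.560% and 0.634% of squamous barcodes. Endothelial-marker barcodes, where Mgp is also abundant, had 6542 and 6160 CPM. Fbln1, an elastic fibre and basement membrane protein, was at 1532 and 614 CPM, 2.5-fold lower [1.98 to 3.13]. Without the 17 it was 1.86-fold lower. Cxcl12, the chemokine ligand of Cxcr4, was at 1082 and 400.2 CPM, 2.70-fold lower [2.04 to 3.56]. One control barcode held 31 of its 89 UMIs, and without the 17 it was 2.06-fold lower. Gas6, a ligand of Axl-family receptors, was at 279.6 and 90.3 CPM and Penk, the enkephalin precursor, at 267 and 84.2 CPM, 3.10-fold [1.72 to 5.52] and 3.17-fold [1.73 to 5.75] lower. The progesterone level of Gas6 was no higher than the 96.7 CPM of the other kept barcodes. C3 was at 4948 and 2609 CPM, 1.90-fold lower [1.68 to 2.14], and only 1.36-fold lower without the 17.

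The other 6 were of mixed function. The lipocalin Apod was at 1726 and 599 CPM, 2.88-fold lower [2.31 to 3.59], and without the 17 it was 2.07-fold lower. A single control barcode held 48 of its 142 UMIs, and a single progesterone barcode 43 of its 199. Among fibroblasts with no Krt5 or Krt14 UMI the log2 ratio of Apod was -0.14. Apoe, a lipid carrier, was at 4608 and 2157 CPM, 2.14-fold lower [1.88 to 2.42], and 1.76-fold lower without the 17, within 2-fold. Apoe was not a fibroblast gene alone here: squamous barcodes had 258 CPM in control and 1981 CPM in progesterone, so the fibroblast level in the progesterone library was near that of its surroundings. Cytoglobin (Cygb), a haem protein of stromal cells, was at 511 and 178 CPM, and Pam, which amidates peptides, at 377 and 129 CPM. They were 2.88-fold [1.89 to 4.35] and 2.91-fold [1.77 to 4.73] lower, and 2.14-fold and 2.05-fold lower without the 17. Fmo2, a flavin monooxygenase, was 3.16-fold lower [1.79 to 5.50] and 2.22-fold lower without the 17, yet 16 of its 25 control UMIs lay in 1 barcode, and without the top barcode of each library its log2 ratio was -0.38. Other kept barcodes of the progesterone library had more Fmo2, 317 CPM against 96.3 CPM. Fis1, of mitochondrial fission, was at 401 and 147 CPM.

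Besides the Ctla2a group, the genes named as higher were of mixed function. Marcks, an actin-binding kinase substrate of the membrane, was at 389 and 888 CPM, a ratio of 2.28 [1.58 to 3.40], and it stayed above 2-fold without the 17 (2.83 [1.96 to 4.23]). Thinned barcodes had a Marcks UMI in 14.3% [4.81 to 30.3] of control and 49.0% [38.9 to 59.2] of progesterone fibroblasts. In squamous barcodes these shares were 15.8% and 19.1%. Tagln2, an actin-binding protein, was at 48.6 and 202 CPM, Elob (elongin B) at 195 and 460.3 CPM and the class I histocompatibility gene H2-D1 at 182 and 415 CPM. Their ratios were 4.15 [1.55 to 15.7], 2.37 [1.41 to 4.25] and 2.28 [1.33 to 4.18], and all stayed past 2-fold without the 17. With at least 1000 genes per barcode, where 6 control fibroblasts remained, the log2 ratio of Tagln2 was 0.091. Cox6c, a subunit of cytochrome oxidase, went from a ratio of 3.73 [2.21 to 6.77] to 1.90 without them, and Tmsb4x, which binds actin monomers, from 1.81 [1.54 to 2.14] to 1.47. Plac8 was at 109 and 388 CPM, a ratio of 3.55 [1.81 to 7.93] that was 2.26 without the 17. Hba-a1 was named too, with 1 and 602 UMIs, but 579 of the 602 lay in a single barcode, and so did 1229 of the 1314 Hbb-bs UMIs. Tff1 and Muc5b, genes of mucus-making epithelium, were similar, with 147 of 177 and 96 of 135 UMIs in 1 barcode each. Summed over their lists, erythrocyte markers had 4 and 2443 UMIs, with 94.2% of the latter in 1 barcode, and luminal epithelium markers 24 and 751, with 59.8% in 1.

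**Figure D3:**
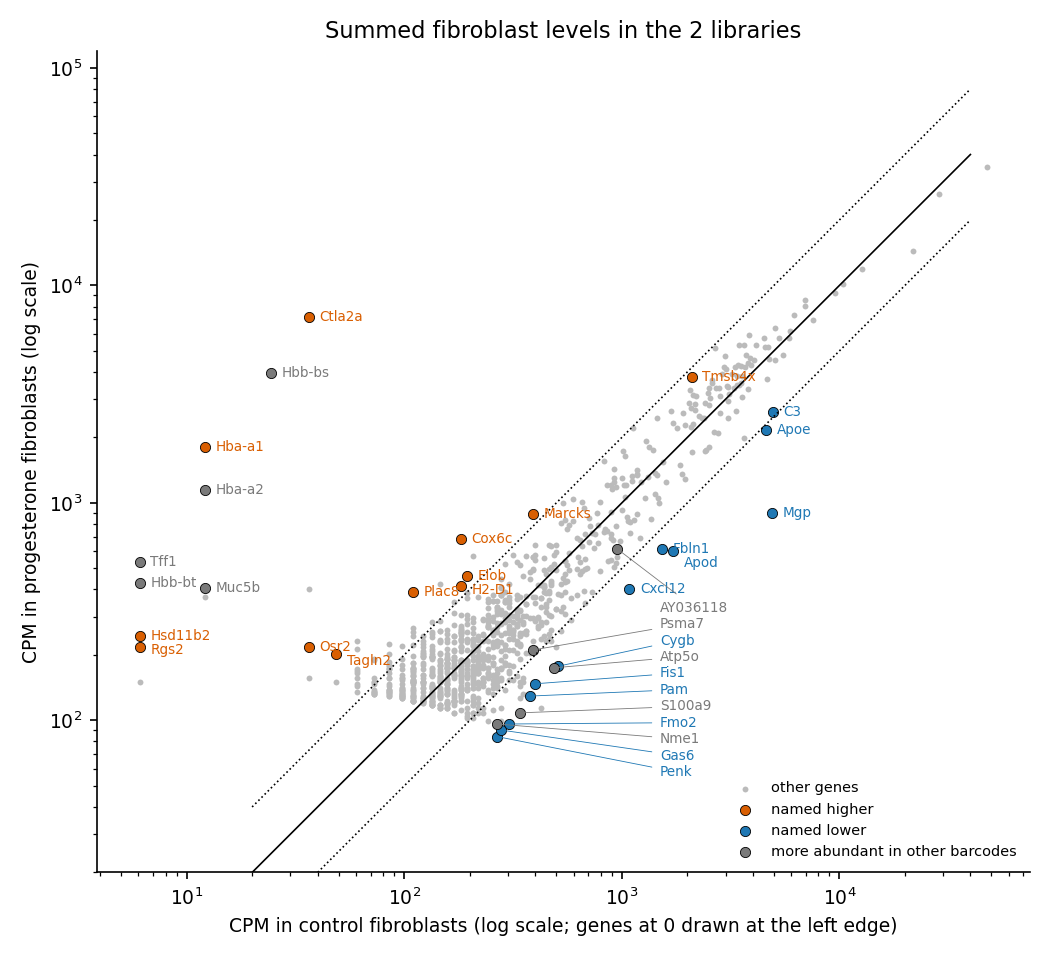
Summed CPM of 989 genes in progesterone (y) against control (x) fibroblasts, both on log axes, with the named genes in orange (higher) and blue (lower) and, in grey, named genes that were more abundant in other barcodes. The solid line is equality and the dotted lines are 2-fold. Genes with no control UMI are drawn at the left edge, and Mgp lies farthest under the lower dotted line among the abundant genes.

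Matrix genes past 2-fold between the libraries were few, as they were among all genes (9.3%). Of 13 fibrillar and associated collagen genes, 8 had 50 UMIs and none was past 2-fold, with a median log2 ratio of -0.31. Col3a1 was at 3064 and 2461 CPM, Col1a2 at 2103 and 1715 CPM and Col1a1 at 1094 and 731 CPM. Of 9 elastic fibre genes tested, Fbln1 and Eln (elastin, 353 and 150.4 CPM) were past 2-fold lower, and none was without the 17. Mfap5 was at 1325 and 1312 CPM. None of the 4 small proteoglycans tested was past 2-fold: Dcn was at 21725 and 14340 CPM, Lum at 1884 and 1354 CPM, Ogn at 705 and 854.5 CPM and Bgn at 365 and 205 CPM. Col1a1, Col1a2, Col3a1, Dcn and Lum are genes of the selection rule, so their levels are a description only. Among 5 collagen-processing genes, Pcolce, which enhances procollagen cleavage, was past 2-fold lower at 340.4 and 150.4 CPM, and none was without the 17. The collagen chaperone Serpinh1 was at 292 and 523.5 CPM. Of 8 matrix proteases tested, Mmp2 and Mmp14 among them, none was past 2-fold, nor was any of 5 protease inhibitors, of which Timp2 was at 2419 and 1736 CPM and Timp3 at 669 and 394 CPM. In the matricellular list Mgp alone was past 2-fold of 10. No gene of the hyaluronan list, which governs the water-binding matrix of the ripening cervix, reached 50 UMIs: the 10 genes summed to 11 UMIs in control and 27 in progesterone fibroblasts, with Has2 at 2 and 3.

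Many list medians were higher when the 17 barcodes were left out. With all fibroblasts, 17 of the 25 lists with a tested member had a median below 0, and without the 17 it was 10. The small proteoglycan median went from -0.54 to -0.16, the protease inhibitor median from -0.48 to -0.10 and the adventitial median from -0.01 to 0.45. The small proteoglycan list includes the rule's genes Dcn and Lum, and the collagen list Col1a1, Col1a2 and Col3a1. The limit of 5 stromal UMIs is a higher CPM in the shallower control barcodes. The part of the selection in these medians was not tested. Of 14 adventitial genes tested, 1 was past 2-fold higher with all fibroblasts (Creb5, 109 and 265 CPM) and 2 were without the 17. Of 7 complement genes tested, C4b was past 2-fold lower at 340.4 and 144.4 CPM, and none was without the 17. Of 6 interferon-stimulated genes tested, H2-D1 alone was past 2-fold, both ways. Of all genes tested, 5.56% were past 2-fold higher and 3.74% lower with all fibroblasts, and 4.7% and 2.35% without the 17.

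**Figure D4:**
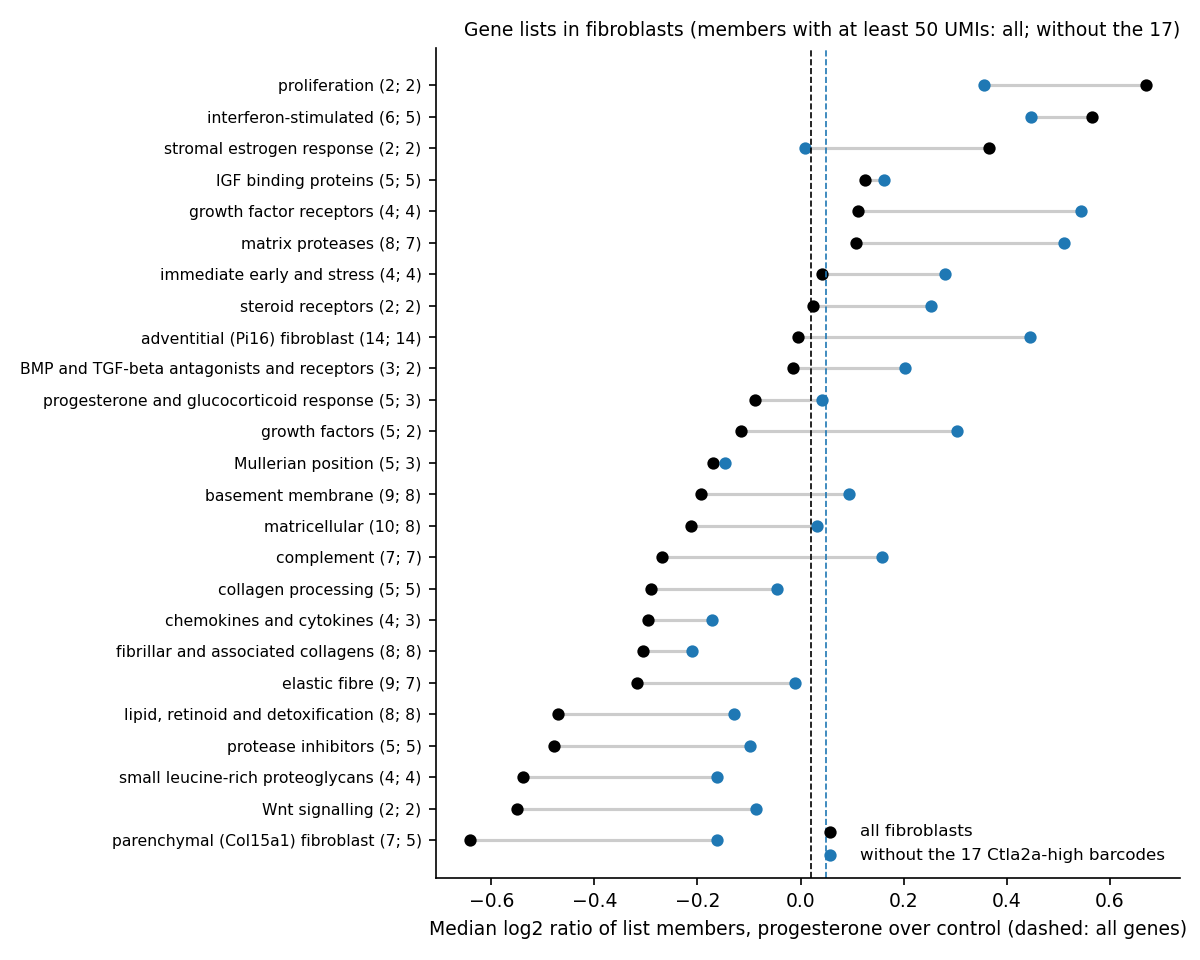
Median log2 ratio of progesterone over control CPM for each gene list, over members with at least 50 UMIs (numbers in parentheses, with all fibroblasts and then without the 17), for all fibroblasts (black) and without the 17 Ctla2a-rich barcodes (blue). Dashed lines are the medians of all genes, 0.02 and 0.05. Most blue points lie to the right of the black ones. The small proteoglycan and collagen lists include genes of the selection rule.

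Steroid receptors named here were read in few fibroblasts. Pgr, the progesterone receptor, had 2 UMIs in control and 19 in progesterone fibroblasts, 24.3 and 57.2 CPM. Of the 19, 14 lay in 9 of the 17 Ctla2a-rich barcodes, 142.6 CPM [78 to 239] against 21.4 CPM [6.93 to 49.8] in the other 95. Esr1, the estrogen receptor, had 11 and 31 UMIs, 134 and 93.3 CPM, and the glucocorticoid receptor Nr3c1 11 and 49 UMIs. Esr2 and Nr3c2 had none. Thinned shares of Pgr, 5.71% [0.700 to 19.2] and 5% [1.64 to 11.3], stood beside squamous shares of 2.87% and 5.06%, but squamous barcodes held most Pgr UMIs themselves, 91.2% and 64.7% of those in kept barcodes. Macrophage-marker barcodes, with 0 and 7 Pgr UMIs, had 7.56 CPM [3.04 to 15.6] in the progesterone library. Of 20 progesterone and glucocorticoid response genes, 5 were tested and Hsd11b2 alone was past 2-fold, against 9.3% of all genes. Klf9, a known progesterone and glucocorticoid target, was at 267 and 223 CPM, Mt1 at 365 and 343 CPM, and Fkbp5 had 0 and 5 UMIs.

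Growth and signalling genes were mostly too few to compare. Of 31 growth factors 5 had 50 UMIs. Gas6 and Penk were past 2-fold lower, as were 3.74% of all genes. Igf1 was at 340.4 and 517.5 CPM, a ratio of 1.52 [1.02 to 2.36] that was 0.903 [0.576 to 1.45] without the 17. Sfrp1 and Sfrp4, secreted Wnt antagonists, were at 523 and 379 CPM and at 425.5 and 274 CPM. Pdgfra, the receptor that marks fibroblasts widely, was at 182 and 271 CPM. Of 18 proliferation genes, Tubb5 and H2afz were tested and neither was past 2-fold.

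Within each library, fibroblasts with Pi16 differed from those without. Pi16 was detected in 31 of 74 control (41.9% [30.5 to 53.9]) and 70 of 112 progesterone fibroblasts (62.5% [52.9 to 71.5]), and after thinning in 51.4% [34.0 to 68.6] and 49.0% [38.9 to 59.2]. Median depth was 1179 UMIs with Pi16 and 851 without in control, and 2609.5 and 2285.5 in progesterone. Of 989 genes, 51 (5.16%) were past 2-fold higher with Pi16 in both libraries and 10 (1.01%) past 2-fold lower in both, 6.17% in all. Fbn1 (fibrillin 1) was at 2101 CPM with Pi16 and 308 CPM without in control, and at 1291 and 269 CPM in progesterone. Its ratios were 6.83 [3.79 to 13.4] and 4.80 [3.36 to 7.04]. Mfap5, a microfibril protein, had ratios of 4.43 [2.73 to 7.51] and 6.04 [4.38 to 8.51]. The surface antigens Ly6a and Ly6c1, the stromal marker Cd248, the Wnt antagonist Sfrp4, the matrix protein Ecm1 and the Gas6 receptor Axl were also higher in both, with ratios from 3.27 to 7.34.

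By summed UMIs, Cxcl12 was higher in the fibroblasts without Pi16. It was at 200.1 CPM with Pi16 and 1916 CPM without in control, 9.58-fold lower [4.64 to 22.9], and at 213 and 692 CPM in progesterone, 3.25-fold lower [2.24 to 4.79]. A single control barcode held 31 of the 81 control UMIs without Pi16. Igfbp3 was 21.8-fold [3.53 to 896] and 2.54-fold [1.72 to 3.79] lower with Pi16, and Apoe 2.91-fold [2.29 to 3.72] and 1.43-fold [1.23 to 1.66]. With the 17 Ctla2a-rich barcodes left out, the progesterone ratio was 0.182 [0.122 to 0.268] for Cxcl12, 0.207 [0.137 to 0.308] for Igfbp3 and 0.516 [0.438 to 0.608] for Apoe. By counts of barcodes the division was less clear. Of the control fibroblasts 26 had Pi16 and no Cxcl12, 19 had Cxcl12 and no Pi16, 5 had both and 24 neither. In the progesterone library the numbers were 48, 21, 22 and 21, so Cxcl12 barcodes had Pi16 about as often as not. Without the 17 they were 45, 17, 20 and 13. These counts were not thinned, and the progesterone barcodes were deeper. Mgp and Apod, named above as lower with progesterone, were compared in the same way. With Pi16 against without, Mgp had ratios of 0.503 [0.405 to 0.623] in control and 1.24 [0.968 to 1.59] in progesterone, and Apod 0.333 [0.219 to 0.493] and 0.937 [0.701 to 1.26]. Without the 17 the progesterone ratios were 0.836 [0.632 to 1.1] for Mgp and 0.534 [0.398 to 0.720] for Apod, and the difference between the libraries was not tested.

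**Figure D5:**
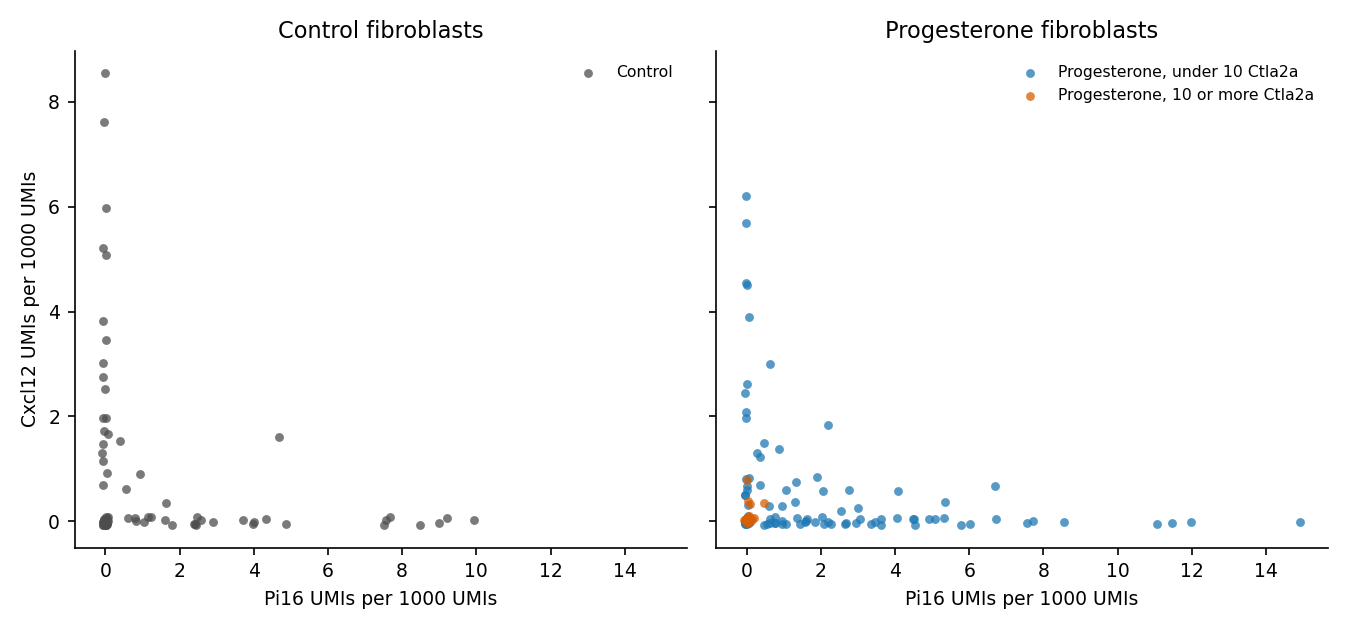
Pi16 (x) and Cxcl12 (y) UMIs per 1000 UMIs of each fibroblast barcode, 1 point per barcode with a small random offset, control left and progesterone right. The barcodes highest in Pi16 lie near 0 in Cxcl12 and those highest in Cxcl12 near 0 in Pi16, in both panels, and the 17 Ctla2a-rich barcodes (orange) are near 0 on both axes.

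The contrast with smooth muscle rests on the progesterone library. Barcodes with a muscle sum of at least 10 that exceeded the stromal sum were 1 in control and 16 in progesterone, under the minimum of 20 set for the comparison, so no call in both libraries was made and the 16 are a description. They held 63949 UMIs, fewer than the fibroblasts, so a gene high only in fibroblasts met the minimum of UMIs at a lower CPM. Of 957 genes, 250 (26.1%) were past 2-fold higher in fibroblasts and 108 (11.3%) lower, 37.4% in all. Outside the rule's genes, Igfbp6 (2100 CPM), Clec3b, Pi16, Dpt, Cd55 and Fbn1 had no UMI in the 16 and were at least 44.8-, 38.6-, 33.0-, 28.4-, 19.4- and 19.0-fold higher in fibroblasts. Gsn (gelsolin) was at 10170 CPM in fibroblasts against 375 CPM, a ratio of 27.1 [18.2 to 42.4]. All 21 fibroblast markers tested were past 2-fold higher and all 8 muscle markers past 2-fold lower. The contractile genes Myl9 and Tpm2 were at 15.0 and 114 CPM in fibroblasts and at 3956 and 7756 CPM in the 16. Rxfp1 had 4 UMIs in 1 of the 16, and Ctla2a 1. The 16 also held keratin, with 129 Krt14 and 66 Krt5 UMIs, which their rule did not limit. All 10 pericyte markers were detected in them, at 1548 CPM in sum, with 58 of the 99 UMIs in 1 barcode. Erythrocyte markers had 1749 UMIs, 1746 of them in 1 barcode. Of the 1512 UMIs of smooth muscle markers outside the rule, 428 lay in 1 barcode. The part of pericyte RNA in the contrast was not tested.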

How the data were processed

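The deposited matrices hold UMI counts per gene and barcode, made by the authors with Cell Ranger 3.0.2 and build mm10, per the submitters' processing notes, and the promoter sequences and positions given are of the same build (30934 of 31053 gene identifiers are in GENCODE M21). Cervix cells of 2 libraries, control and progesterone, were analysed with no replicate, so no test was run. UMIs were summed over the fibroblasts of each library (82256 and 332363) and scaled to CPM. The 95% interval of a level came from the Poisson distribution and that of a share from the method of Clopper and Pearson. That of a ratio came from a binomial conditioned on the gene's summed UMIs. Not every value is printed with its interval. A fold against 0 used a floor of 3 UMIs, which gives a larger fold than the lower 95% limit. Intervals and floors cover counting error only. A gene was called past 2-fold among genes with at least 50 fibroblast UMIs. The script was tested on simulated data. Doublets were kept, as the rule does. As an alternative, Scrublet (scanpy 1.11.5) scores removed 181 control and 680 progesterone barcodes, with 3 and 9 fibroblasts among them.

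Named genes were the 12 highest and 12 lowest between libraries by the interval bound nearest to 1, outside the rule's, mitochondrial and ribosomal protein genes. They had to be at least as high in fibroblasts as in all kept barcodes of the library where they were higher. The 5 highest and 5 lowest that failed only this condition were named apart. The limit of 10 Ctla2a UMIs was set after the values were seen. The 8 genes highest and lowest with Pi16 and the 10 highest and lowest against muscle followed the same bound. Members of 26 gene lists and 18 marker classes were added. The members, lists and rules were chosen with earlier results of these data known. Promoters came from the RefSeq table, GRCm38.p6. Hsd11b2, Osr2, Rxfp1 and Mgp had no entry. Squamous background barcodes had at least 10 Krt5 and Krt14 UMIs and a stromal sum of 0. The libraries shared 19 barcode sequences. Alternatives covered filters, selection limits, scaling, thinning and leaving out barcodes. Scripts used Python 3.11.15, numpy 2.4.6, scipy 1.17.1, pandas 2.3.3 and matplotlib 3.10.9. A result on 1 gene is not reported here.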

Additional observations from a re-analysis of the deposited data

Results flagged for a closer look

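For 9 of the named genes the ratio of progesterone over control CPM lay on one side of 1 in fibroblasts and on the other in the remaining kept barcodes of the same 2 libraries. The difference between the cell groups was not tested. Tagln2 had a ratio of 4.15 in fibroblasts and 0.563 elsewhere, and Elob 2.37 and 0.773. Mgp had 0.183 in fibroblasts and 1.13 elsewhere, where it was at 27.2 and 30.8 CPM. Apod had 0.347 and 2.06, the latter at 0.528 and 1.08 CPM, levels near 0. Cxcl12 had 0.370 and 6.76, from 0.863 to 5.83 CPM in the remaining barcodes. Apoe had 0.468 and 4.34, with 393 and 1706 CPM in the remaining barcodes. Fmo2 had 0.317 and 7.24, Pam 0.343 and 1.21 and Gas6 0.323 and 2.64.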

How the results depend on the processing

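No paired analysis was possible because each group is 1 library, the labels carry no replicate numbers, and no result comes from a test. Of 154 values for the named higher genes, 153 kept their direction and 14 moved, and of 156 for the lower genes, 155 kept it and 24 moved. Ctla2a, without the barcodes of at least 10 Ctla2a UMIs, had a log2 ratio of -0.094, and Fmo2, with at least 1000 genes per barcode, one of 0.12, where 6 control fibroblasts remained. The fibroblast share was 0.201% in control and 0.967% in progesterone with at least 1000 genes, 0.945% and 0.716% with Krt5 and Krt14 at 0, and 3.20% and 4.76% with barcodes of other markers left out, which shrinks the denominator. Genes past 2-fold between the libraries numbered 84 higher with at least 1000 genes, 33 higher and 13 lower with Krt5 and Krt14 at 0, 312 and 198 with a minimum of 20 UMIs per gene, 19 and 10 with 100, and 36 and 18 without the 17 Ctla2a-rich barcodes. Against muscle-sum barcodes they numbered 626 higher and 332 lower with 20 UMIs, 112 and 35 with 100, and 138 and 71 with Krt5 and Krt14 at 0. List medians below 0 numbered 10 with the mean of each cell's CPM and 10 without the 17. Minimums and left-out barcodes change how many genes are tested. Beyond that, the cause was not tested. Of 325 list medians 11 moved, and of 84 shares of barcodes 41 moved, with thinning to 2000 UMIs or with none. The depth of 82256 control UMIs leaves most genes unread, and 1 library per group leaves every difference without a replicate.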
